A study of Mus musculus with 4 samples.

Results

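The genes described are 8 negative feedback regulators of inflammatory signalling, Dusp1, Dusp6, Socs3, Nfkbia, Nfkbiz, Tnfaip3, Rgs1 and Rgs2, chosen by symbol and each found once among the 31053 genes of the count matrices. They were followed across the cell classes of mouse brain and between brains dissociated without and with transcription and translation inhibitors. Single-cell RNA-seq libraries (10x 3′ chemistry, which counts each captured transcript once by its unique molecular identifier, UMI) came from the whole brains of 4 mice (C57BL/6J, male, postnatal day 90), all digested with enzymes at elevated temperature and carrying no transgene or disease model. The 2 groups of 2 animals differed in the cocktail alone: the brains of one group were dissociated without inhibitors, and those of the other with actinomycin D and triptolide, which block transcription, from the perfusion on, and anisomycin, which blocks translation, from the dissection on. Each library came from 1 animal, the labels place all 4 in Batch 1, and n = 2 animals per group throughout.

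A stimulated cell switches on the brakes of the same pathways that activated it. Dusp1 encodes a nuclear phosphatase that inactivates the MAP kinases p38, JNK and ERK, and Dusp6 a cytoplasmic phosphatase with a preference for ERK. Socs3 is induced by STAT3 and blocks the receptors and JAK kinases upstream of it. Nfkbia encodes IκBα, which holds NF-κB in the cytoplasm and is itself an NF-κB target, Nfkbiz encodes the nuclear IκBζ, which restrains some NF-κB targets and is needed for others, and Tnfaip3 encodes A20, an enzyme that edits ubiquitin chains on the signalling complexes upstream of NF-κB. Rgs1 and Rgs2 speed the shut-off of G proteins behind chemokine and other G-protein-coupled receptors. Several of the 8 are also known as immediate early or delayed early genes, whose transcripts appear within minutes and decay quickly, and microglia, the resident macrophages of the brain, carry many of the receptors that feed these pathways.

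The members lie on 6 chromosomes in the GRCm38 build and all are annotated as protein coding. Rgs2 (chr1:143999338-144004161, minus strand) and Rgs1 (chr1:144242296-144249242, minus strand) share chromosome 1, and Tnfaip3 (chr10:19000910-19015657, minus strand) and Dusp6 (chr10:99263231-99267489, plus strand) share chromosome 10. Socs3 lies at chr11:117966079-117970047, Nfkbia at chr12:55489410-55492647 and Nfkbiz at chr16:55811375-55838899, each on the minus strand. The annotated span of Dusp1 (chr17:26505590-26562128, minus strand) overlaps AC122252.4 and AC122252.1 on its own strand, so a read in the shared stretch could be assigned to more than 1 of them. RefSeq held promoter windows for 6 of the 8 members. The stretches upstream of the transcription start are shown for the 3 members with a window that were called in microglia-like cells, Dusp1 (chr17:26508520-26508722), Socs3 (chr11:117969452-117969616) and Rgs2 (chr1:144004162-144004399), and for Nfkbia (chr12:55492648-55492897), which was not called there. All are given 5′ to 3′ on the minus strand of GRCm38, the gene's own strand, without bases that fall in an exon, and capitals mark the motif matches.
Dusp1 promoter: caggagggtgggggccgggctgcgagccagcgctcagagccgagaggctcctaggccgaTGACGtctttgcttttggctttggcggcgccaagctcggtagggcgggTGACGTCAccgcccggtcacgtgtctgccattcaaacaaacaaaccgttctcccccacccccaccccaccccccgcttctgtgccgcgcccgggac
Socs3 promoter: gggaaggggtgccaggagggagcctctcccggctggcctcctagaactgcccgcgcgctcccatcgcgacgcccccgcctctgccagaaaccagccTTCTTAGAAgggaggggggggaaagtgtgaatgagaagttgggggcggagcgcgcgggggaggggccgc
Rgs2 promoter: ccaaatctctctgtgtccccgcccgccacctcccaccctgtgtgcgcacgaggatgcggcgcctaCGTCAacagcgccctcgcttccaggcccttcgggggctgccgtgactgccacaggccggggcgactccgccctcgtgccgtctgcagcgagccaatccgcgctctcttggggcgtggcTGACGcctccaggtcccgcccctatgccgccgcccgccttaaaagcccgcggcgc
Nfkbia promoter: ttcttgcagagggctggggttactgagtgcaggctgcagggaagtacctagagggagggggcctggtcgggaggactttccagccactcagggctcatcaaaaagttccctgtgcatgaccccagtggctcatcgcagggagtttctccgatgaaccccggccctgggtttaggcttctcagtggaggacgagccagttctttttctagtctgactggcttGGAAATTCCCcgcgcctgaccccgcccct

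The capitals in the Dusp1 promoter are a full cyclic AMP response element (TGACGTCA) that begins 143 bases before the start, and a TGACG at 191 bases. The full element was found in 1.55% of 32807 promoter windows of 250 bases, and TGACG, which is also part of the full element, in 17.8%, both strands searched. In the Socs3 promoter the capitals mark a match to the STAT motif TTCNNNGAA, present in 7.02% of windows. In the Rgs2 promoter they mark TGACG on either strand. Nfkbia held a match to the NF-κB motif on the opposite strand, present in 1.41% of windows, 29 bases before the start. Of the windows not printed, the first of Tnfaip3 held an NF-κB and an AP-1 match (TGANTCA, 6.75% of windows) and that of Dusp6 held none of the 5 motifs. A match is a description of letters and not a bound site.

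The 4 libraries held 12487 barcodes and 5134359 to 7529804 UMIs each. After filtering, 9861 cells remained, 2089 to 2810 per animal, with a median of 1440 to 1685 UMIs per cell, and pairs of libraries shared between 9 and 13 barcodes. Clusters were made without the members, the pathway genes or the study's own activation genes, and were named from fixed markers. Microglia-like cells numbered 3264 (706 to 954 per animal), all 7 microglia markers were found in them, and their summed level was 12944 and 13524 CPM (counts of UMIs scaled to 1000000 per class and animal) without inhibitors and 13225 and 11765 CPM with them. The other tested classes were astrocyte-like (1887 cells), endothelial-like (1701), oligodendrocyte-like (891), choroid plexus-like (618), neuron-like (318), mural-like (312) and ependymal-like cells (185), and a small cluster of 97 cells led by H2-Aa and Ccr2 that mixed genes of monocytes, dendritic cells, lymphocytes and neutrophils and was given no cell type name. All levels are given in CPM. Each fold change is without over with inhibitors from edgeR's quasi-likelihood test on per-animal sums, and a gene was called at an adjusted p below 0.05 and a log2 fold change beyond 0.58. The 2 animals of a group are separate animals, and an exact permutation test of 2 against 2 could not go below p = 0.333.

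In microglia-like cells, 4 of the 8 members were called, and all 4 were higher in the brains dissociated without inhibitors: Dusp1 (48.0-fold), Socs3 (5.91-fold), Rgs1 (4.64-fold) and Rgs2 (1.51-fold). Of all 8770 genes tested in this class, 0.468% were called higher. The fitted change was above 0 for each of the 8 members, with a median log2 fold change of 0.75 against -0.0018 over all genes tested. For 7 of the 8, both animals without inhibitors lay above both animals with them, which held for 14.2% of all genes tested. Dusp1, Socs3, Rgs1 and Nfkbiz are also on the study's list of activation genes, which was drawn up from data of the same study, so their direction is not independent evidence.

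**Figure D1:**
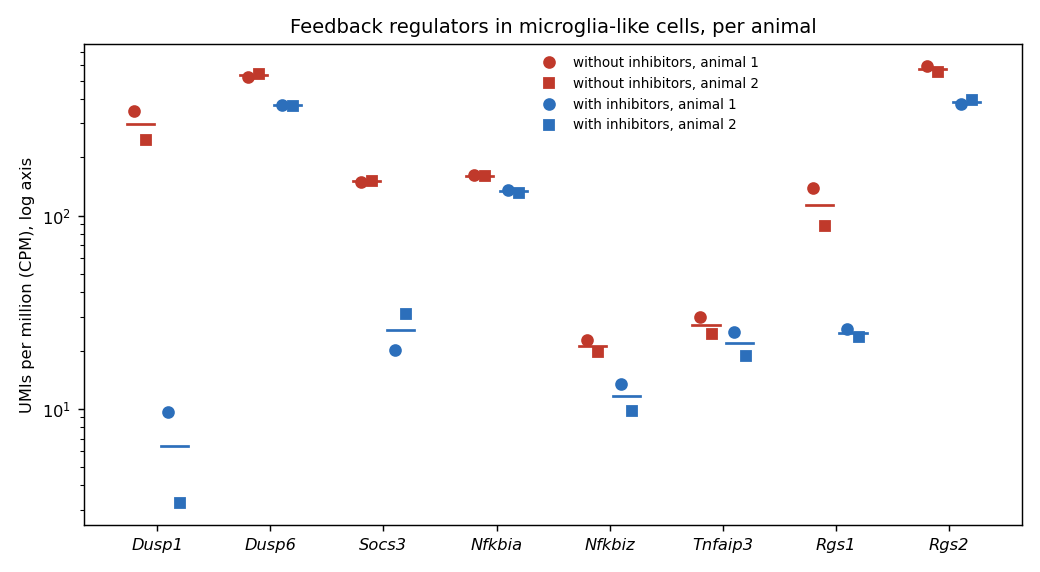
Level of each regulator in microglia-like cells, in CPM on a log axis; red points are the 2 animals without inhibitors, blue points the 2 with them, and each bar is the group mean. Dusp1 sits at 348 and 245 CPM without inhibitors and at 9.59 and 3.24 CPM with them, while the points of Tnfaip3 overlap between groups.

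Among the MAP kinase phosphatases, Dusp1 had the largest change of the 8 members and Dusp6 one of the smaller ones. Dusp1 stood at 348 and 245 CPM in the animals without inhibitors, from 384 and 312 UMIs. With inhibitors it stood at 9.59 and 3.24 CPM, from 10 and 4 UMIs. The groups were far apart, although the animals within each group also differed. The log2 fold change was 5.58 ± 0.21, with an interval of the fold from 35.9 to 64.2 and an adjusted p of 5.28e-110 in edgeR. Here and below, the ± of a log2 fold change is that change divided by the square root of edgeR's F statistic. It is not a standard error of the counts and can be too narrow for large changes, as can the intervals. Leaving out 1 animal at a time, the log2 fold change ran from 4.97 to 6.49, wider than that interval. DESeq2 gave an adjusted p of 4.92e-16. Dusp6 was abundant in both groups, at 523 and 541 CPM without and 373 and 370 CPM with inhibitors. The animals of each group were close together and the groups did not overlap, but the log2 fold change of 0.55 ± 0.10 (adjusted p = 1.96e-05, edgeR) fell short of the 0.58 required, so Dusp6 was not called.

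Socs3, the STAT3-induced brake on cytokine receptors, stood at 149 and 151 CPM without inhibitors and at 20.1 and 30.8 CPM with them. The former pair was nearly equal and lay well above the latter. The log2 fold change was 2.56 ± 0.19, with an adjusted p of 1.35e-39 in edgeR and 1.08e-12 in DESeq2.

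None of the 3 regulators of NF-κB was called, although the fitted change of Nfkbiz was larger than those of Dusp6 and Rgs2. Nfkbia, the classical NF-κB inhibitor, stood at 161 and 160 CPM without and 136 and 131 CPM with inhibitors, a log2 fold change of 0.30 ± 0.13 (adjusted p = 0.601, edgeR). Nfkbiz stood at 22.6 and 19.6 CPM without and 13.4 and 9.73 CPM with inhibitors, from 12 to 25 UMIs per animal, and its log2 fold change of 0.90 ± 0.36 did not pass (adjusted p = 0.494, edgeR). Both had groups that did not overlap. Tnfaip3 was the one member whose groups overlapped, at 29.9 and 24.3 CPM without and 24.9 and 18.7 CPM with inhibitors (log2 fold change 0.35 ± 0.28, adjusted p = 0.935, edgeR). The intervals of the fold, 1.03 to 1.47 for Nfkbia, 1.14 to 3.05 for Nfkbiz and 0.865 to 1.87 for Tnfaip3, left room for changes of moderate size that these animals could not resolve after adjustment over all genes.

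Rgs1 and Rgs2, both on chromosome 1, differed in the size of their change. Rgs1 stood at 139 and 87.9 CPM without inhibitors and at 25.9 and 23.5 CPM with them, a log2 fold change of 2.22 ± 0.20 (adjusted p = 4.47e-25, edgeR). The animals without inhibitors differed from each other, but the lower of them still lay well above both animals with inhibitors. Rgs2 stood at 596 and 553 CPM without and 380 and 397 CPM with inhibitors. Its log2 fold change of 0.59 ± 0.10 (adjusted p = 1.37e-06, edgeR) lay just past the required size, and ranged from 0.54 to 0.64 over the alternative fits. Rgs2 lost its call without no-inhibitor animal 1 (0.54), without inhibitor animal 1 (0.56) and with library totals in place of normalisation factors (0.56), each time because of the size of the change and not the adjusted p.

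Markers of other cells were also found in the microglia-like sums, and for 12 of 16 such lists the groups overlapped. The largest sum was that of the 5 choroid plexus markers, 2758 and 4091 CPM without and 1999 and 3785 CPM with inhibitors. The 8 macrophage and monocyte markers summed to 9.42 and 11.8 CPM without and 6.49 to 18.2 CPM with inhibitors. The 5 erythrocyte markers were higher without inhibitors (506 and 763 CPM against 144 and 271 CPM), and the 7 oligodendrocyte markers were lower (1006 and 925 CPM against 1180 and 1785 CPM). The 5 neutrophil markers were lower without inhibitors (166 and 162 CPM against 182 and 217 CPM), as were the 4 of 5 T or NK cell markers found, which summed to 0.906 and 0.785 CPM against 0.959 and 6.49 CPM with Cd3e at 0. The part of these lists in the changes was not tested.

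In sums over a class, fewer cells with a transcript and fewer transcripts per cell cannot be told apart, so the cells were also counted after each was thinned to 1000 UMIs. This left out 208 microglia-like cells without and 281 with inhibitors that were shallower, from medians of 1411 to 1466 and 1271 to 1456 UMIs per cell and animal. A Dusp1 UMI was found in 11.8% and 8.74% of the cells of the animals without inhibitors, and in 0.650% and 0.393% with them. Socs3 was found in 9.97% and 9.54% against 2.11% and 2.36%, and Rgs1 in 8.44% and 5.78% against 1.95% and 2.62%. Most microglia-like cells thus held no UMI of these 3 genes at this depth even without inhibitors. The more widely found members differed by less in proportion, Rgs2 at 40.5% ± 1.45 without and 32.4% ± 0.695 with inhibitors and Dusp6 at 38.8% ± 1.34 and 31.0% ± 1.01 (mean ± SD, n = 2). Nfkbia was found in 13.2% ± 0.922 against 11.9% ± 0.386, Tnfaip3 in 2.61% ± 0.648 against 1.97% ± 0.199 and Nfkbiz in 1.95% ± 0.283 against 0.896% ± 0.342. These last differences depended on the thinning draw: all 8 members had a higher share in both animals without inhibitors, but 5 did with another random seed, and at 1500 UMIs per cell the differences of Nfkbia and Tnfaip3 turned to -0.986 and -0.320 percentage points, so no difference in share is read for Nfkbia, Tnfaip3 or Nfkbiz. The part of all genes with such a separation of shares was not counted. The number of members with it is therefore not read as a result about the members. Exact binomial intervals of the shares cover counting error only.

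For comparison with cells that should lack the gene, Rgs1 was found in 0 of the 311 to 526 thinned astrocyte-like cells per animal, which allows a share of up to 0.570% to 0.965%, at medians of 1393 to 1625 UMIs per cell. Before thinning, the astrocyte-like cells of no-inhibitor animal 2 held 1 Rgs1 UMI and those of the other 3 animals none. The Dusp1 share of microglia-like cells with inhibitors lay below that of astrocyte-like cells (2.69% ± 0.235 without and 3.53% ± 0.0137 with inhibitors), and is not read as expression. Before thinning, the 100 and 84 microglia-like cells with Dusp1 in the animals without inhibitors carried 3.84 and 3.71 UMIs each on average, with a maximum of 22 and 21. The 10 and 4 such cells with inhibitors carried exactly 1 UMI each. Both the number of cells with the transcript and the number of transcripts per such cell were therefore higher without inhibitors. Socs3 had the same form on a smaller scale, with 1.70 and 1.93 UMIs per cell that held it against 1.00 and 1.12.

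Cells that held several members were more frequent in both animals without inhibitors. A thinned microglia-like cell held 1.24 ± 0.0631 of the 8 members without and 0.832 ± 0.0124 with inhibitors (mean ± SD, n = 2), a difference of 0.411. Among the 652 and 744 cells without inhibitors, 175 and 201 held no member, as did 246 and 296 among the 615 and 764 cells with inhibitors. Cells with 3 or more members made up 12.6% and 11.4% without inhibitors and 3.58% and 3.01% with them. The cells with 3 or more members thus formed a minority in each of the 4 animals. Among cells without inhibitors that held Dusp1, 27.3% and 26.2% also held Socs3, compared with 7.65% and 7.95% of cells that lacked Dusp1. Nfkbia, which was not called in the class as a whole, was found in 28.6% and 30.8% of the cells with Dusp1 and in 11.8% and 10.8% of the others. Rgs2 differed less, at 50.6% and 41.5% against 40.3% and 39.3%. These shares are descriptions of cells of the same libraries.

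**Figure D2:**
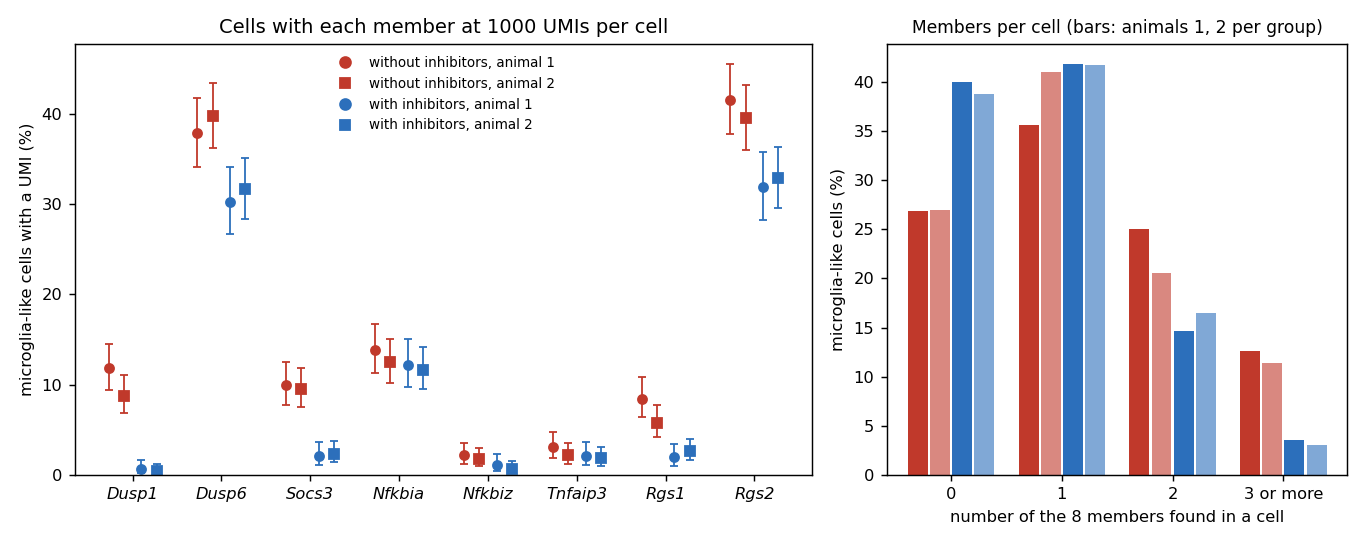
Left, percent of microglia-like cells with at least 1 UMI of each regulator after thinning to 1000 UMIs per cell, per animal, with exact 95% binomial intervals; right, percent of these cells by the number of the 8 regulators found, with dark bars for animal 1 and pale bars for animal 2 of each group (red without, blue with inhibitors). Cells with 3 or more regulators made up 12.6% and 11.4% without inhibitors and 3.58% and 3.01% with them.

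Within the microglia-like class, the difference was seen in each of the 3 larger clusters. In the largest, of 2028 cells, Dusp1 stood at 402 and 313 CPM without inhibitors. In that of 716 cells, the 2 animals without inhibitors differed widely, at 260 and 42.6 CPM, but both lay above the animals with inhibitors, at 8.77 and 3.43 CPM. Dusp1, Dusp6, Socs3, Rgs1 and Rgs2 each lay higher in both animals without inhibitors in these clusters and in another of 382 cells, whereas Nfkbia and Tnfaip3 overlapped between groups in the clusters of 716 and 382 cells. How many of all genes lay higher in this way within the clusters was not counted. A cluster of 26 cells came mostly from inhibitor animal 2 (22 cells), which held 9 Socs3 UMIs there. Without that cluster, left out after seeing the data, the log2 fold change was 5.67 for Dusp1 and 2.78 for Socs3, and the same 4 members were called.

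Most other classes held several members at levels too low to test. Of the 72 pairs of a member and a tested class, 42 fell below the count filter, 6 of them without a single UMI, and 30 were tested. In the 8 classes other than microglia-like cells, 0 of 22 tested pairs were called by edgeR and 0 by DESeq2, and 5 had an unadjusted p below 0.05, 4 of them higher without inhibitors. Among all genes tested, those called higher made up 0.0373% in astrocyte-like, 0.0% in endothelial-like, 0.2% in oligodendrocyte-like, 3.81% in choroid plexus-like, 0.062% in neuron-like, 0.0234% in mural-like and 0.0% in ependymal-like cells, and 0.0% in the H2-Aa/Ccr2 cluster. More genes were called in choroid plexus-like cells than in any other class tested, but only 2 of the 8 members were tested there. Counts of 0 among the few members tested per class lie near these shares and are not read as a result about the members.

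**Figure D3:**
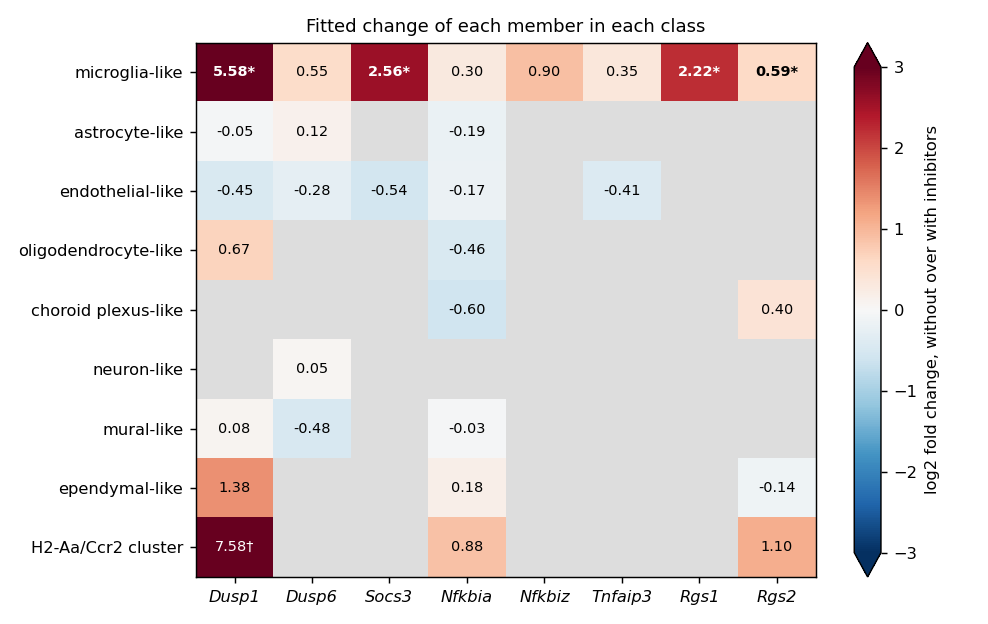
Fitted log2 fold change, without over with inhibitors, of each regulator in each tested class; colour runs from -3 to 3, grey marks pairs below the count filter, an asterisk a called pair and a dagger a gene without a UMI in the group with inhibitors. The 4 asterisks all lie in the microglia-like row.

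Endothelial-like cells were the main source of Nfkbia and, with inhibitors, of Dusp1. Nfkbia stood there at 959 and 792 CPM without and 1036 and 954 CPM with inhibitors, in each group above every other tested class and beyond the range of the next, mural-like cells at 435 to 468 CPM. Endothelial Dusp1 stood at 278 and 166 CPM without and 348 and 251 CPM with inhibitors, groups that overlapped (log2 fold change -0.45 ± 0.21, adjusted p = 0.908, edgeR). That value rests on no-inhibitor animal 1. Without it the log2 fold change was -0.78 and the gene was called lower (adjusted p = 8.72e-05, edgeR). Dusp6 (76.4 and 80.9 CPM against 105 and 92.2 CPM) and Socs3 (14.6 and 13.1 CPM against 18.4 and 21.4 CPM) had lower values without inhibitors in both animals, which did not pass the test (adjusted p = 0.917 and 0.918, edgeR). Tnfaip3 was counted as 8 and 9 UMIs against 7 and 19 UMIs, and its levels overlapped.

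Mural-like cells resembled endothelial-like cells in Dusp1 (258 and 243 CPM without, 275 and 215 CPM with inhibitors), and ranked next to them in Nfkbia. The 6 endothelial markers summed to 7995 and 8999 CPM without and 8531 and 9642 CPM with inhibitors in mural-like cells. In endothelial-like cells they summed to 16886 to 17611 CPM. The part of endothelial transcripts in the Dusp1 and Nfkbia of mural-like cells was not tested. Most of their Dusp1 came from 1 cluster of 137 cells that also carried the endothelial markers. Without that cluster, left out after seeing the data, Dusp1 in mural-like cells had a log2 fold change of 0.48 (adjusted p = 0.970, edgeR), against 0.08 with it. Socs3 was found in mural-like cells as 5 and 6 UMIs without and 0 and 2 UMIs with inhibitors, too few to test.

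The neural and epithelial classes expressed few of the members. Astrocyte-like cells held Dusp1 at 28.3 and 34.0 CPM without and 29.4 and 35.1 CPM with inhibitors, nearly the same in both groups, and the interval of the fold ran from 0.631 to 1.48. Their Dusp6 stood at 72.9 and 68.0 CPM against 60.4 and 67.3 CPM and their Nfkbia at 95.8 and 64.0 CPM against 94.7 and 83.4 CPM. Neither was called. Socs3 was found in astrocyte-like cells as 3 and 5 UMIs without inhibitors and 0 UMIs in both animals with them. The summed level was 1.99-fold a floor of 3 counts over the group with inhibitors. This ratio leaves out the counting error of the few UMIs found and is not a lower limit. Ependymal-like cells, whose Dusp1 stood at 71.3 and 89.6 CPM without and 24.1 and 41.8 CPM with inhibitors, had groups that did not overlap, but the log2 fold change of 1.38 ± 0.45 failed the adjustment over genes (adjusted p = 0.996, edgeR). Their Socs3, at 2 and 4 UMIs against 0 and 0, was too scarce to test. Oligodendrocyte-like Dusp1 stood at 47.9 and 48.0 CPM without and 37.5 and 23.4 CPM with inhibitors (log2 fold change 0.67 ± 0.30, adjusted p = 0.460, edgeR). Nfkbia there went the other way, at 51.6 to 68.2 CPM without and 70.1 to 96.8 CPM with inhibitors. Its log2 fold change was -0.46, and it was not called. Both genes had an unadjusted p below 0.05 (edgeR) in this class. In neuron-like cells Dusp1 rested on 16 and 4 UMIs against 2 and 3, in choroid plexus-like cells on 7 and 12 against 10 and 4, and neither was tested.

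The H2-Aa/Ccr2 cluster, with 23 to 28 cells per animal, carried the highest Nfkbiz of the tested classes in both groups (169 and 131 CPM without, 40.3 and 78.4 CPM with inhibitors, from 2 to 9 UMIs per animal), and the highest Rgs1 (113 and 204 CPM against 60.5 and 52.2 CPM), although without inhibitors its Rgs1 range overlapped with that of microglia-like cells. Dusp1 was found there as 13 and 45 UMIs without inhibitors and as 0 UMIs in both animals with them. This was 14.0-fold a floor of 3 counts over the group with inhibitors, a ratio that leaves out the counting error of the UMIs found. The test did not call it (adjusted p = 0.276, edgeR), with 591 genes tested in this cluster. It was called without no-inhibitor animal 1, without inhibitor animal 2 and with no count filter, and also when the 66 macrophage or monocyte-like cells were added after seeing the data (adjusted p = 0.0113, edgeR). Those cells, too few to test alone, held 30 and 25 Dusp1 UMIs without and 0 and 0 with inhibitors, 11.5-fold such a floor. Markers of several cell types differed between the animals of this cluster. The 5 neutrophil markers summed to 11041 and 14524 CPM without inhibitors and to 0 and 20717 CPM with them. The macrophage and monocyte markers, 7 of 8 found and Lyve1 at 0, were higher without inhibitors, at 2047 and 1796 CPM against 1371 and 1306 CPM, as were the erythrocyte (300.4 and 496 CPM against 80.7 and 235 CPM) and endothelial markers (113 and 161 CPM against 101 and 104.5 CPM), and the oligodendrocyte markers were lower (939 and 365 CPM against 948 and 1254 CPM). The T or NK cell and B cell markers overlapped between groups. The part of these markers in the levels of Dusp1, Rgs1, Nfkbiz and Rgs2 in the cluster was not tested. Rgs2 in the cluster stood at 376 and 248 CPM against 161 and 104 CPM, a log2 fold change of 1.10 ± 0.45 that was not called (adjusted p = 0.906, edgeR).

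**Figure D4:**
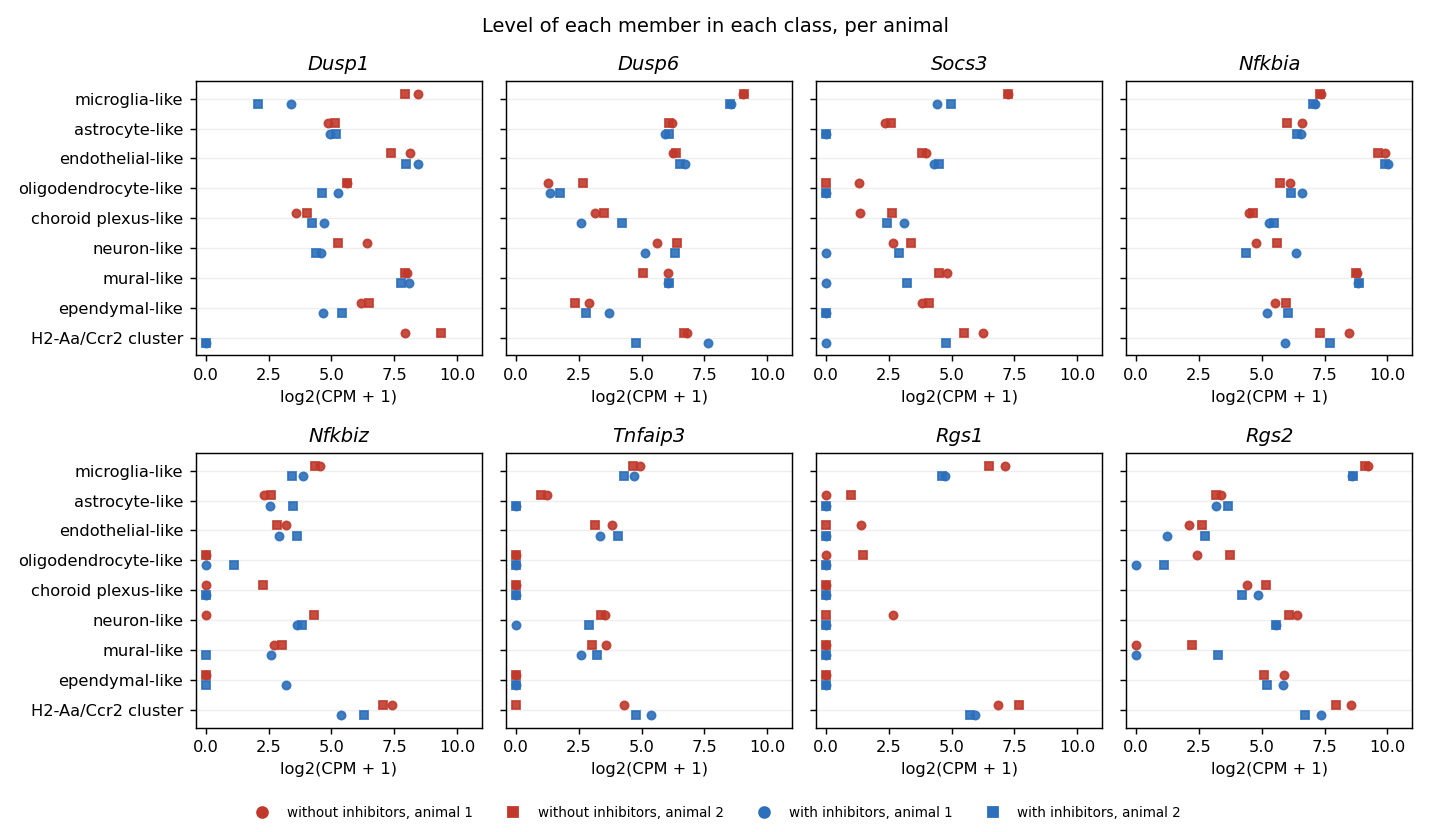
Level of each regulator in each tested class, as log2(CPM + 1), for the 2 animals without inhibitors (red) and the 2 with them (blue). Dusp1 lies higher in both animals without inhibitors in microglia-like, ependymal-like, oligodendrocyte-like and neuron-like cells and in the H2-Aa/Ccr2 cluster. In choroid plexus-like cells it lies lower, and its astrocyte-like, endothelial-like and mural-like points overlap.

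The order of the tested classes depended on the member and, for Dusp1, on the group. Without inhibitors, Dusp1 ranged from 166 to 657 CPM in the H2-Aa/Ccr2 cluster and in microglia-like, mural-like and endothelial-like cells, whose ranges overlapped from one neighbour to the next. With inhibitors, endothelial-like and mural-like cells led, and microglia-like cells lay below the ranges of all 7 other named classes. Among the tested classes, microglia-like cells had the highest Dusp6 and Rgs2 in both groups, beyond the range of the H2-Aa/Ccr2 cluster that followed them. For Socs3 they led without inhibitors, where the next class, the H2-Aa/Ccr2 cluster, reached 43.8 and 75.1 CPM. With inhibitors their range of 20.1 to 30.8 CPM overlapped with that of endothelial-like cells, 18.4 to 21.4 CPM. Rgs1 was nearly confined to the H2-Aa/Ccr2 cluster and microglia-like cells, since the other 7 tested classes held 0 or 1 UMI of it per animal. Tnfaip3 was highest in microglia-like cells without inhibitors, and with them the H2-Aa/Ccr2 cluster, on 3 UMIs, ranked above.

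The share of each member's UMIs that came from microglia-like cells followed. For Dusp1 it was 45.4% without and 1.59% with inhibitors, while the endothelial share was 23.6% and 64.7%. For Socs3 it was 83.3% and 51.8%. Rgs1 (90.5% and 91.8%) and Rgs2 (85.8% and 89.5%) came mostly from microglia-like cells in both groups, Dusp6 at 76.5% and 69.3% and Tnfaip3 at 68.8% and 58.3%. Nfkbia came mostly from endothelial-like cells (57.9% and 66.9%), and Nfkbiz from microglia-like cells at 49.0% and 35.6%. These shares also depend on how many cells of each class were captured.

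The sums over all cells showed how far the class differences carried into a profile of all captured cells, which depends on how many cells of each class were captured. Socs3 stood at 40.4 and 38.4 CPM without and 9.09 and 14.0 CPM with inhibitors and was called (log2 fold change 1.82 ± 0.19, adjusted p = 0.0290, edgeR). Rgs1 stood at 33.8 and 21.4 CPM against 6.65 and 5.96 CPM and was called too (2.19 ± 0.26, adjusted p = 0.0429, edgeR). These 2 of 8 members compare with 0.0508% of all 13774 genes called higher. Dusp1, at 156 and 127 CPM against 95.1 and 86.9 CPM, did not overlap between groups but was not called (0.71 ± 0.12, adjusted p = 0.152, edgeR), although DESeq2 called it (adjusted p = 0.0477). Rgs2 (0.60 ± 0.12, adjusted p = 0.236), Dusp6 (0.35 ± 0.10, adjusted p = 0.629) and Nfkbiz (0.39 ± 0.25, adjusted p = 0.851) were not called by edgeR, nor was Tnfaip3 (0.06 ± 0.26, adjusted p = 0.980), whose direction turned to -0.0085 with library totals alone. Nfkbia had lower values without inhibitors, at 230 and 242 CPM against 276 and 320 CPM (-0.26 ± 0.11, adjusted p = 0.737, edgeR). The calls of Socs3 and Rgs1 were lost when either animal with inhibitors was left out, that of Rgs1 also with RLE size factors, library totals alone, a stricter cell filter or doublets kept, and a fit with a replicate block called 4 members in all cells (Dusp1, Socs3, Rgs1 and Rgs2).

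Whether the change in microglia-like cells differed from that in another class was tested directly as an interaction, with the animal as a block. Of 64 pairs of a member and another class, 46 could be estimated, because a pair without a UMI in one group gives no finite estimate, and 8 were called, all with the larger change in microglia-like cells. Dusp1 accounted for 6 of them: the difference of log2 fold changes was 6.02 ± 0.26 from endothelial-like, 5.94 ± 0.75 from choroid plexus-like, 5.61 ± 0.46 from astrocyte-like, 5.45 ± 0.36 from mural-like, 4.94 ± 0.45 from oligodendrocyte-like and 4.07 ± 0.68 from ependymal-like cells. The difference from neuron-like cells, 4.09 ± 1.09, was not called (adjusted p = 0.208, edgeR). The count filter was applied to the 2 classes together, so a pair could enter through its microglia-like counts. In the other classes alone, 22 pairs passed it. Dusp1 passed it in neither choroid plexus-like nor neuron-like cells. Its called difference from choroid plexus-like cells rests on 19 UMIs without and 14 UMIs with inhibitors there. Socs3 differed from endothelial-like cells by 3.08 ± 0.43 (adjusted p = 6.82e-10, edgeR) and Dusp6 by 0.84 ± 0.20 (adjusted p = 0.00790, edgeR), although Dusp6 was called in neither class alone. The call for Dusp6 was lost when any 1 of the 4 animals was left out, and that for Dusp1 against ependymal-like cells without inhibitor animal 2. The interactions called positive over all genes made up 0.336% for endothelial-like, 0.23% for choroid plexus-like, 0.175% for astrocyte-like, 0.122% for mural-like, 0.177% for oligodendrocyte-like, 0.074% for ependymal-like and 0.0509% for neuron-like cells, and 0.0311% for the H2-Aa/Ccr2 cluster.

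**Figure D5:**
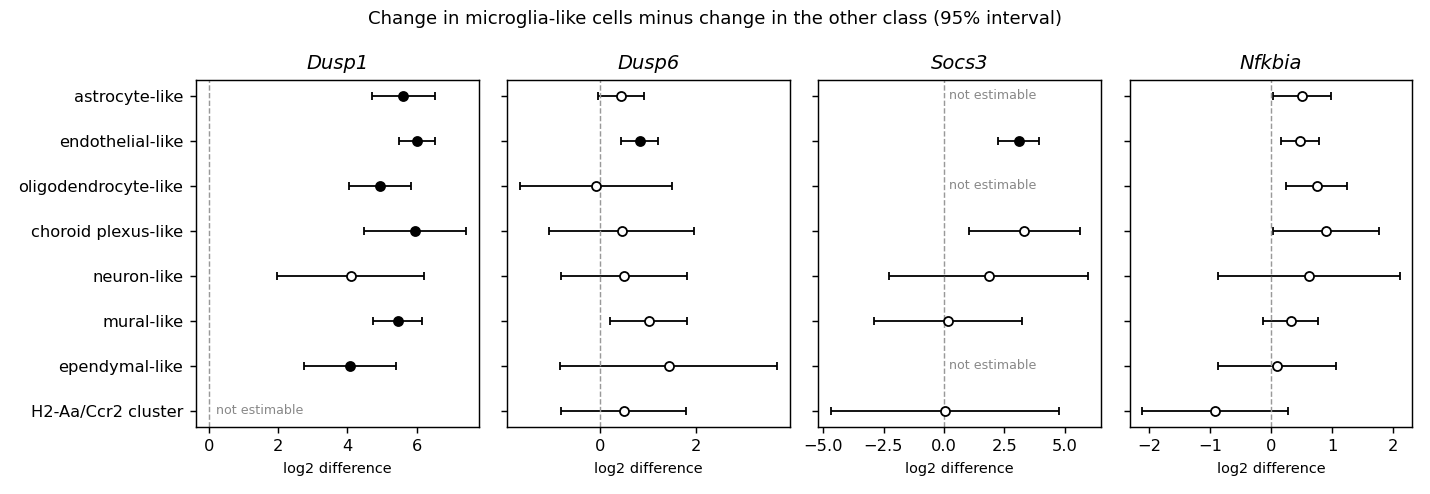
Log2 fold change in microglia-like cells minus that in the other class, for Dusp1, Dusp6, Socs3 and Nfkbia. The 95% intervals are unadjusted and derived from the F statistic. Filled points were called after adjustment over all genes, open points were not, and pairs with 0 UMIs in one group carry no point. Filled points are 6 for Dusp1 and 1 each for Dusp6 and Socs3. In choroid plexus-like and neuron-like cells alone, Dusp1 was below the count filter.

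For the remaining members the difference between classes was not resolved. Rgs1 could be compared only with the H2-Aa/Ccr2 cluster, from which it differed by 0.41 ± 0.92 (95% interval -1.40 to 2.22). Nfkbia differed from endothelial-like cells by 0.48 ± 0.16, with an interval of 0.17 to 0.78 before adjustment and an adjusted p of 0.332 in edgeR. Rgs2 differed from the H2-Aa/Ccr2 cluster by -0.81 ± 0.54, with an interval of -1.87 to 0.26. From oligodendrocyte-like cells it differed by -2.74 ± 1.10, with an interval of -4.89 to -0.59 before adjustment. That difference was not called (adjusted p = 0.681, edgeR) and rests on 10 UMIs without and 1 UMI with inhibitors in oligodendrocyte-like cells.

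The relatives and the pathways of the members were listed too, and the genes called in these lists were members. The members were chosen with earlier results of these data known, so this is not read as a contrast with the relatives. In microglia-like cells 52 listed genes that are no members were tested and 0 were called by edgeR or DESeq2. That is near the share over all genes, of which 45 of 8770 were called by edgeR. Among the 52, 5 had an unadjusted p below 0.05, 4 of these lower without inhibitors. Of 10 MAP kinase phosphatases 4 were tested and 1, Dusp1, was called. Of the 8 SOCS genes 5 were tested and 1, Socs3, was called, and of 10 RGS genes of the same subfamily 4 were tested and 2, Rgs1 and Rgs2, were called. Of the 6 IκB genes 5 were tested and 0 called, with a median log2 fold change of 0.30; Nfkbid, which encodes another nuclear IκB protein and is on the study's activation list, was counted as 30 and 36 UMIs against 16 and 16 UMIs (1.00 ± 0.32, adjusted p = 0.177, edgeR). None of the 8 tested A20 partners and deubiquitinases (median 0.05), 3 Sprouty and Spred genes (0.24) or 4 Toll and interleukin 1 receptor brakes (-0.07) was called.

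The upstream kinases and transcription factors themselves gave no call. Medians were -0.12 for 8 tested NF-κB subunits and IκB kinases, 0.12 for 8 MAP kinases and 0.03 for 8 genes of JAK-STAT3 signalling. Stat3, the factor upstream of Socs3, stood at 53.4 and 54.1 CPM without and 79.6 and 77.9 CPM with inhibitors, a log2 fold change of -0.52 ± 0.18 that did not pass (adjusted p = 0.332, edgeR). Of 7 cytokine ligands only 3 reached the count filter, among them Il1a with 95 and 107 UMIs against 99 and 101 UMIs. Il1b, which encodes interleukin 1β, was below the filter in microglia-like cells at 2 and 18 UMIs against 2 and 5 UMIs. In all cells Il1b was counted as 36 and 30 UMIs against 6 and 5 UMIs, and its log2 fold change of 2.47 ± 0.44 did not pass (adjusted p = 0.157, edgeR). In all cells, 71 listed genes that are no members were tested and 0 were called by either tool, near the share over all genes (7 of 13774, edgeR). Among the 71, 7 had an unadjusted p below 0.05, 2 of them higher without inhibitors (Il1b and Nfkbid) and 5 lower (Dusp5, Dusp8, Il6st, Rgs5 and Trim30a). These 7 were named after their values were seen.

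Across the 36 sums of 9 classes in 4 animals, the members did not form 1 pattern. Their Pearson correlations with each other on log2(CPM + 1) share libraries and class identity and are given as description. These correlations ran from -0.31 for Nfkbia and Rgs2 to 0.77 for Dusp6 and Tnfaip3, with 0.75 for Rgs1 and Rgs2. Dusp1 was most like Nfkbia among the members (0.55) and least like Rgs2 (-0.26). Among 12102 other genes, the most alike were Epsti1 (0.97) and Ncf4 (0.97) for Rgs1, Arid3a (0.92) for Tnfaip3, Def6 (0.87), Klf2 (0.86) and Gbp3 (0.86) for Nfkbia, Arl4c (0.87), Jpt1 (0.85) and Orai2 (0.84) for Rgs2, and Btg1 (0.86), Prkcd (0.86) and Kctd12 (0.85) for Dusp6. Next for Rgs1 was Gm26740 (0.96), and Tnfaip3 was followed by Ly6e (0.86) and Xlr (0.85). The highest values were lower for the other 3 members, with Sav1 (0.78), Zfp358 (0.76) and Foxk1 (0.74) for Dusp1, Tnfrsf11a (0.79) and Klhl6 (0.73) for Socs3, and Cd74 (0.79), Btg1 (0.78) and Trp53 (0.78) for Nfkbiz.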

How the data were processed

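The deposited UMI counts per gene and cell barcode were made by the authors with Cell Ranger 3.0.0 on the mm10 reference (filtered Ensembl 93 annotation), 1 library per animal. The submitters' processing notes also name bcl2fastq and Seurat. Sequencing counts only the 3′ end of a transcript, so the counts were not divided by length.

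Cells with at least 400 genes and at most 20% mitochondrial UMIs were kept (10067 of 12487 barcodes), and 206 of them (2.05%) were removed as doublets by a simulation-based score. Counts were scaled to 10000 per cell, and 2000 variable genes, without 121 genes of the pathway and activation lists, gave 30 components and 31 Leiden clusters (leidenalg 0.10.2, igraph 0.11.9, scikit-learn 1.9.0). Clusters were named from fixed markers into 16 classes, since no deposited annotation was used, so a class may differ from the study's own. Raw counts were summed per animal and class, and 9 classes with at least 20 cells in every animal entered edgeR 4.0.16 (R 4.3.3, TMM, filterByExpr, robust quasi-likelihood test, Benjamini-Hochberg adjustment over all genes of a fit). A call needed an adjusted p below 0.05 and a log2 fold change beyond 0.58, after the study's own thresholds. The study's methods used DESeq2 on such sums, and DESeq2 1.42.0 was run as an alternative. Interactions were fitted on 2 classes with the animal as a block. The edgeR and DESeq2 fits between groups and the interaction fit were tested on simulated counts.

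Total UMIs per animal were 4511498 to 6088648 after filtering. A count of 1 to 25 UMIs per animal, as for Nfkbiz and Tnfaip3 in most classes, gives little precision. Binomial intervals and floors (3 counts) cover counting error only. The ± values and intervals of log2 fold changes were derived from the F statistic and can be too narrow for large changes. Counts of 2 animals of a group differed beyond sampling noise (chi-square per degree of freedom 5.95 without and 4.82 with inhibitors), so each library was counted as its own sample.

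The members and lists were chosen with earlier results of these data known. All 8 members are reported in every tested class. Of the pathway lists, called genes and a few relatives named by function are given, the relatives chosen after their values were seen. The genes most alike were the 3 with the highest Pearson r among genes reaching 20 CPM in at least 1 class, of which 1 is not reported here. Animals of the same number were not treated as pairs, and their deviations correlated at r = 0.0448 (all cells) and r = 0.0278 (microglia-like). Olfactory ensheathing-like cells, however, came only from animal 1 of each group. A replicate block raised the calls over all genes from 7 to 107 in all cells and from 1 to 20 in mural-like cells. Whether animals of the same number shared handling was not tested. Alternatives changed the normalisation, count filter, cell filter, doublet removal, tool, thinning depth and seed, and left out each animal. Promoter windows came from RefSeq (GRCm38.p6) and gene spans from GENCODE vM21.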

Additional observations from a re-analysis of the deposited data

Results flagged for a closer look

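In 8 cases the change of a regulator between dissociation without and with inhibitors differed between microglia-like cells and another class by the interaction test (edgeR's quasi-likelihood test, animal as block, adjusted over all genes). Each value is the log2 fold change in microglia-like cells minus that in the other class. For Dusp1, whose log2 fold change was 5.58 in microglia-like cells, it was 5.61 against astrocyte-like cells (adjusted p = 1.14e-29), 5.94 against choroid plexus-like cells (adjusted p = 5.00e-12), 6.02 against endothelial-like cells (adjusted p = 7.71e-110), 4.07 against ependymal-like cells (adjusted p = 4.01e-06), 5.45 against mural-like cells (adjusted p = 6.89e-13) and 4.94 against oligodendrocyte-like cells (adjusted p = 7.15e-24). For Dusp6 it was 0.84 against endothelial-like cells (adjusted p = 0.00790), where the values were 0.55 and -0.28. For Socs3 it was 3.08 against endothelial-like cells (adjusted p = 6.82e-10), where the values were 2.56 and -0.54. In endothelial-like cells none of the 3 was called by itself. In choroid plexus-like cells alone Dusp1 fell below the count filter, and it entered that fit through its microglia-like counts.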

How the results depend on the processing

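With 2 animals per group, each call rests on few samples, and regulators with under about 10 UMIs per class and animal were below what this depth resolves. In microglia-like cells 3 or 4 regulators were called under every alternative run, and Dusp1, Socs3 and Rgs1 kept their calls in all of them. In all cells 2 were called, against 1 with RLE size factors, with library totals alone, with a stricter cell filter and with doublets kept, 4 with no count filter, and 0 to 4 when 1 animal was left out (0 without either animal with inhibitors). With the replicate block 4 were called in all cells, and it changed the number of called regulators in no other comparison. In the other 8 classes 0 pairs were called, against 1 with no count filter, 1 with macrophage or monocyte-like cells added (chosen after seeing the data), and 0 to 2 when 1 animal was left out. Interaction calls numbered 8, and 6 to 7 when 1 animal was left out. The number of regulators with a higher share of microglia-like cells in both animals without inhibitors was 8, against 5 when cells were thinned to 500 UMIs and 5 with another random seed. How many of all genes did so was not counted. The difference in regulators per cell was 0.411, against 0.234 at 500 UMIs and 0.588 at 1500 UMIs.

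Of the values of single regulators, 488 kept their direction and their side of the threshold, 12 became called, 11 lost a call, 15 shares moved beyond the spread between animals and 20 values changed sign, none of a called result. When 1 animal was left out, the log2 fold change crossed 0 for Tnfaip3 in all cells (-0.14 to 0.25), Dusp1 (-0.19 to 0.11) and Nfkbia (-0.48 to 0.11) in astrocyte-like cells, Dusp1 (-0.063 to 0.24), Dusp6 (-0.98 to 0.059) and Nfkbia (-0.066 to 0.028) in mural-like cells and Nfkbia in ependymal-like cells (-0.25 to 0.60), and for Dusp6 in neuron-like cells it was -0.37 to -0.30. It also turned for Tnfaip3 in all cells with library totals alone (-0.0085), for Dusp1 in astrocyte-like (0.082) and Nfkbia in choroid plexus-like cells (0.063) with the stricter cell filter, and for Dusp6 in neuron-like (-0.35) and Nfkbia in ependymal-like cells (-0.16) with doublets kept. At 1500 UMIs per cell the share difference was -0.986 percentage points for Nfkbia and -0.320 for Tnfaip3. The cause of these changes was not tested.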

Other observations

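Olfactory ensheathing-like cells numbered 61 and came only from animal 1 of each group, so they had no replicates. Rgs2 was counted there as 38 UMIs (583 CPM) in 29 cells without inhibitors and as 13 UMIs (145 CPM) in 32 cells with them. Dusp6 stood at 153 and 89.5 CPM in these cells, and Dusp1 was found in neither animal.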
